A study of Mus musculus with 3 samples.

Results

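The 10 genes described here are transcription factors and markers of pluripotency, taken by symbol from a list that was set with earlier results of these data known, and they are 10 of the 39179 genes in the deposited table. The RNA came from a mouse embryonic stem cell line carrying a Contactin2:eGFP reporter and a lentiviral aMHC:mCherry reporter, in which the promoter of the heart muscle myosin gene Myh6 drives mCherry. The cells were differentiated, given Sodium Nitroprusside (a nitric oxide donor) on day 4 and sorted on day 25, and all populations share the line, the reporters and the treatment. GFP denotes cells positive for Cntn2:eGFP with dim αMhc:mCherry, MHC denotes cells positive for αMhc:mCherry, and NEG denotes cells negative for both reporters. With a single library for each population, nothing could be tested against replicate spread, and p-values are absent. The labels name no other element of the lentiviral vector, do not say whether the line is a clone, and the values below come from differentiated cells alone, with no library of undifferentiated stem cells.

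Pluripotency in mouse embryonic stem cells rests on a core of transcription factors, OCT4 (Pou5f1), SOX2 and NANOG, which bind together at their own and many other genes. Around this core stand factors of the naive state that respond to the cytokine LIF through STAT3, among them KLF4 and TFCP2L1, with KLF2, KLF5 and REX1 (Zfp42). DPPA5A is an RNA-binding protein and TDGF1 (Cripto) a co-receptor for Nodal, both abundant in stem cells and used as markers. The core factors are silenced as cells differentiate, whereas KLF2 is known in endothelium, KLF4 and KLF5 in epithelia and smooth muscle, TFCP2L1 in ducts of the kidney and salivary gland, and Zfp42 in placenta and testis.

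The promoters of 4 members are printed first because their genes carry the pattern described below, Nanog as a core gene that was low, Zfp42 as the gene high in a single library, and Klf4 and Tfcp2l1 as genes highest in GFP. Each run is the 250 bases before the gene's start from RefSeq on GRCm38.p6, printed 5′ to 3′ on the gene's own strand. RefSeq windows were matched for 8 of the 10 members, and Klf5 and Dppa5a had no entry. Capitals mark matches, on either strand, to 6 motifs, the octamer bound by POU factors (ATGCAAAT), the octamer-SOX composite, the GC box (GGGCGGGG), the CACCC box (CCACACCC), the STAT palindrome (TTCCNGGAA) and the TATA box (TATAAA).
Nanog, chr6:122707239-122707488, plus strand: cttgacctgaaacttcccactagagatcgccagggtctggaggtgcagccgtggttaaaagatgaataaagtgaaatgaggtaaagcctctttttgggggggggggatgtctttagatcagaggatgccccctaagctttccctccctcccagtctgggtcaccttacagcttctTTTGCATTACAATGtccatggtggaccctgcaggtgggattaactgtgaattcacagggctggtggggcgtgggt
Zfp42, chr8:43307010-43307259, minus strand: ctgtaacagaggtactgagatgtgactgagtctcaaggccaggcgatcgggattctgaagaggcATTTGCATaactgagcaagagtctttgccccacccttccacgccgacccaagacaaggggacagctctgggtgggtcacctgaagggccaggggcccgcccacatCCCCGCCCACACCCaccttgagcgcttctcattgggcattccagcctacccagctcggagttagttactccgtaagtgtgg
Klf4, chr4:55532476-55532725, minus strand: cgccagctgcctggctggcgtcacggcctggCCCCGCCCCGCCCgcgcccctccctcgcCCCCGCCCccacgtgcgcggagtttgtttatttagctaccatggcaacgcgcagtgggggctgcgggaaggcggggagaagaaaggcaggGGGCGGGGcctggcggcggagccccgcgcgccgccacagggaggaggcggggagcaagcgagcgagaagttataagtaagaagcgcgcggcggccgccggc
Tfcp2l1, chr1:118627695-118627944, plus strand: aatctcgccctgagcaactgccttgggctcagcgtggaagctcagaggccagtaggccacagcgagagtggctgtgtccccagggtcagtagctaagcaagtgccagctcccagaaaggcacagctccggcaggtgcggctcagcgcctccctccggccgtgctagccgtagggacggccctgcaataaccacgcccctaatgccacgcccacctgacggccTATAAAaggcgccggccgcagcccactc

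In these windows Nanog held the octamer-SOX composite, starting 75 bases before the gene. Zfp42 held the octamer 186 bases before its start, and a GC box and a CACCC box that overlap by a pair of bases. Klf4 held 4 GC boxes, of which the leading pair overlap, and Tfcp2l1 held a TATA box 28 bases before its start. Among 32851 RefSeq windows of the same length, the octamer was in 1.60%, the composite in 0.00609%, the GC box in 16.1%, the CACCC box in 3.20%, the STAT palindrome in 0.913% and the TATA box in 12.4%. These matches describe letters only, and the table has no measure of binding.

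Values are read counts per gene divided by the authors' size factor for the library, called normalised counts. Recovered whole reads came to 52109065 for GFP, 52826956 for MHC and 47289405 for NEG, and 1 read is worth 0.914 in GFP, 1.01 in MHC and 1.13 in NEG. A gene is called 2-fold apart where the log2(value + 1) ratio reaches 2-fold and the higher library has a value of 20 or more, which is a threshold on size without a test. Folds are ratios of the values, with exact 95% intervals from the reads that cover counting error only. The counts behave as reads over the whole gene span on either strand, since 1615 of 1616 nested genes had no more reads than the genes around them, so a gene shares reads with genes that overlap it. In RNA from whole populations, fewer cells of a type and less RNA per cell cannot be told apart.

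The core pluripotency genes were near the bottom of the measured range in all 3 populations. Pou5f1 (ENSMUSG00000024406, chr17:35506018-35510776, mm10, protein-coding) had a normalised count of 7.31 in GFP cells, 8.10 in MHC cells and 9.04 in NEG cells, which is 8 reads in each library. Its libraries lay within counting error of each other, with a fold of 0.902 for GFP over MHC (95% interval 0.295 to 2.76). The antisense gene Gm19553, which lies inside the span of Pou5f1, also had 8 reads in each library, so all Pou5f1 reads may lie in the 1475 bases they share, and the count of Pou5f1 is uncertain.

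Nanog (ENSMUSG00000012396, chr6:122707489-122714633, protein-coding) had 4.57 in GFP, 6.08 in MHC and 10.2 in NEG, from 5, 6 and 9 reads. Sox2 (ENSMUSG00000074637, chr3:34650005-34652461, protein-coding) had 4.57 in GFP, 2.03 in MHC and 10.2 in NEG, from 5, 2 and 9 reads. Both were highest in NEG at counts too low to meet the value of 20, and the interval of GFP over NEG, 0.118 to 1.49 for either gene, includes 1. For Sox2, MHC over NEG was 0.199 (95% interval 0.0210 to 0.963). Sox2 lies within the long non-coding gene Sox2ot, which had 120 in GFP, 93.2 in MHC and 140.1 in NEG, so reads of these transcripts are not separated and Sox2 is uncertain.

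The markers Tdgf1 and Dppa5a were low as well. Tdgf1 (ENSMUSG00000032494, chr9:110939610-110946158, protein-coding) had 0 reads in GFP, where the limit that a count of 0 allows is a value of 2.74 (3 reads), against 8.10 in MHC and 6.78 in NEG. Its pseudogene Tdgf1-ps2 (chr17:12189921-12190456) had 2.74 in GFP, 31.4 in MHC and 12.4 in NEG, more than Tdgf1 itself in each library, and reads of the copies may be exchanged. Dppa5a (ENSMUSG00000060461, chr9:78367052-78368177, protein-coding) had 21.9 in GFP, 16.2 in MHC and 16.9 in NEG, a fold of 1.35 for GFP over MHC (95% interval 0.690 to 2.73). The intervals of all 3 of its ratios include 1. Together Pou5f1, Nanog, Sox2 and Tdgf1 took 18 reads in GFP cells, 24 in MHC cells and 32 in NEG cells.

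For a scale, 32 genes of remote tissues were listed, such as sperm protamines, eye opsins, milk caseins and pituitary hormones. Per kb of exon, their median normalised count was 0.53 in GFP cells, 1.88 in MHC cells and 1.2 in NEG cells. On that scale Pou5f1 had 3.25 in GFP, 3.60 in MHC and 4.02 in NEG, above 27, 20 and 27 of the 32 remote genes. Nanog had 2.04 in GFP, 2.71 in MHC and 4.53 in NEG, above 22, 19 and 27 of them, and Sox2 had 2.22, 0.985 and 4.94, above 23, 11 and 27. The core genes thus lay inside the range of the remote genes in each library, while the insulin gene Ins2, the highest of these, had 25.1 in GFP, 84.2 in MHC and 83.5 in NEG. Dppa5a, a short gene, had 35.4 in GFP, 26.2 in MHC and 27.4 in NEG, above 32, 31 and 31 of the remote genes.

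**Figure D1:**
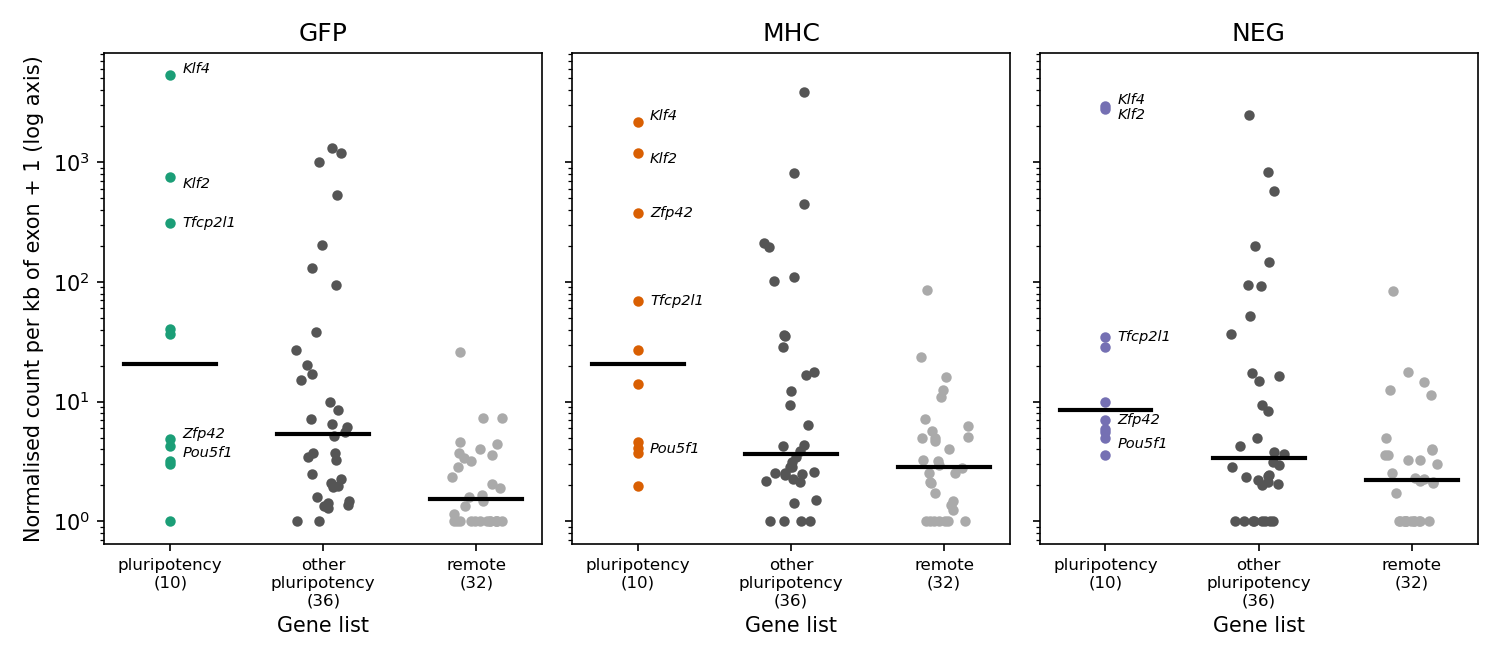
Normalised count per kb of exon plus 1 (log axis) in GFP, MHC and NEG, 1 library each, for the 10 pluripotency genes, 36 other pluripotency genes and 32 genes of remote tissues, with points for genes and bars for medians. Klf4 is the highest of the 10 on this scale in each library, Zfp42 stands at 377 in MHC and close to Pou5f1 in GFP and NEG, and Pou5f1 lies among the remote genes.

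Of the 10 members, 6 reached a value of 20 in at least 1 library, namely Zfp42, Klf2, Klf4, Klf5, Tfcp2l1 and Dppa5a. The other 4, Pou5f1, Nanog, Sox2 and Tdgf1, were below it in all libraries and could not be called. Of the 39179 genes in the table, 20879 reached 20 in GFP or MHC, 20814 in GFP or NEG and 20572 in MHC or NEG. Between GFP and MHC 4 of the 6 members that could be called were 2-fold apart, 3 higher and 1 lower in GFP. Of 20879 genes tested, 31.9% were apart (15.6% higher and 16.4% lower in GFP). Between GFP and NEG 3 of 5 were apart, 2 higher and 1 lower in GFP, against 29.1% of 20814 genes (14.1% higher and 15.0% lower in GFP). Between MHC and NEG 3 of 5 were apart, 2 higher and 1 lower in MHC, against 10.6% of 20572 genes (5.35% higher and 5.21% lower in MHC). With so few members these counts are a description and are not read as a property of the group.

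**Figure D2:**
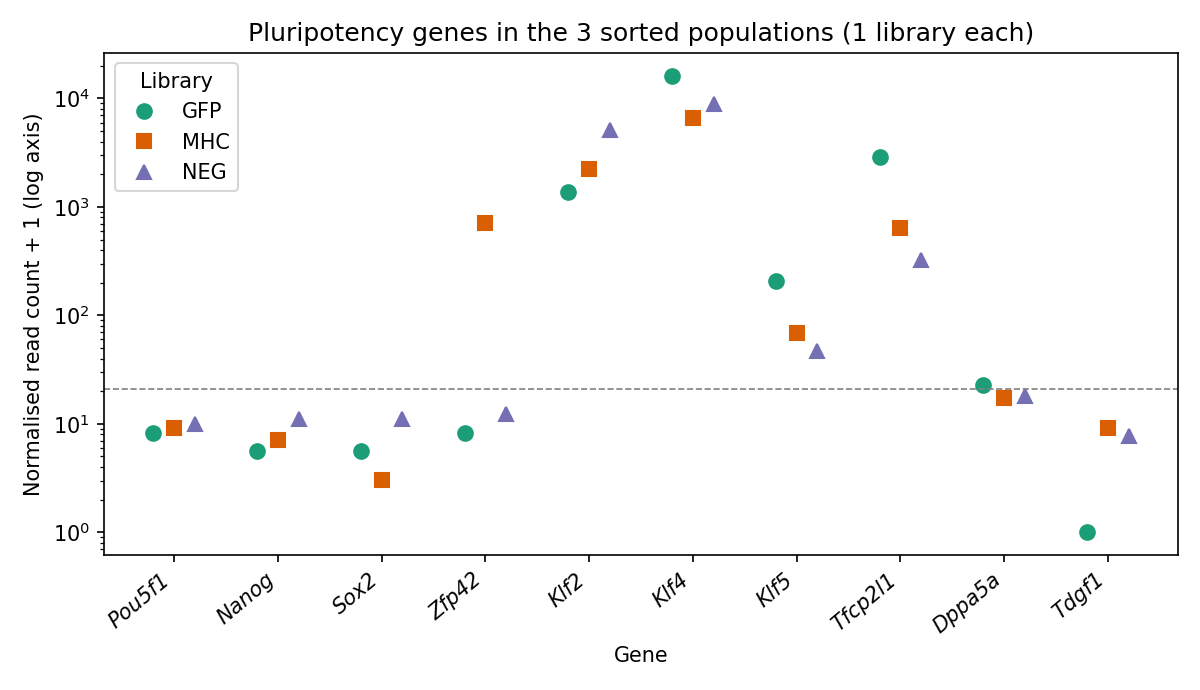
Normalised read count plus 1 (log axis) of the 10 pluripotency genes in GFP, MHC and NEG, 1 library each, with a dashed line at the value of 20 used for calls. Klf2 and Klf4 lie above 1000 in every library, Tfcp2l1 and Klf5 are highest in GFP, Zfp42 is high in MHC alone, and Pou5f1, Nanog, Sox2 and Tdgf1 stay below the line.

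Zfp42, which encodes the zinc finger protein REX1, was the member with the largest difference. It (ENSMUSG00000051176, chr8:43295068-43307009, minus strand, protein-coding) had a normalised count of 7.31 in GFP cells, 709 in MHC cells and 11.3 in NEG cells, from 8, 700 and 10 reads. It was 97.0-fold lower in GFP than in MHC (95% interval 48.9 to 225) and 62.8-fold higher in MHC than in NEG (95% interval 33.9 to 131). GFP and NEG did not differ beyond counting error, with a fold of 0.647 (95% interval 0.222 to 1.82). Per kb of exon Zfp42 had 3.89 in GFP, 377 in MHC and 6.01 in NEG, higher than 29.1%, 77.8% and 31.3% of 21842 protein-coding genes.

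The Zfp42 level in MHC was not accompanied by high levels of the core genes. Per kb of exon it was 1.2 times Pou5f1 in GFP, 105 times in MHC and 1.49 times in NEG, with the count of Pou5f1 uncertain. The multiples depend on the length used. Per kb of span Zfp42 had 0.612 in GFP, 59.4 in MHC and 0.946 in NEG, against 1.54, 1.70 and 1.90 for Pou5f1. Klf4, Klf5 and Tfcp2l1 did not share its order of libraries. No gene of the table overlaps Zfp42, and the nearest gene with a mean value of 10 or more lies 1047657 bases away, so its count in MHC is not shared with a listed neighbour. YY1, the factor from which REX1 derives, was even across populations, with Yy1 at 2480 in GFP cells, 2707 in MHC cells and 2118 in NEG cells. Yy2, which shares reads with its host gene Mbtps2 and is uncertain, had 346 in GFP, 206 in MHC and 297 in NEG.

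The library with high Zfp42 was that of cells positive for mCherry, whereas the GFP gate held cells with dim mCherry and NEG cells were negative. Heart muscle markers moved with it in the pairs with MHC. Of 8 listed, 8 were 2-fold lower in GFP than in MHC and 8 higher in MHC than in NEG. Of all genes, 16.4% and 5.35% were apart in those directions. The gate used mCherry driven by the Myh6 promoter, so the sort itself favours these directions. In GFP against NEG 2 markers were higher and 1 lower, against 14.1% and 15.0% of all genes. The summed normalised count of the 8 markers was 14422 in GFP cells, 306444 in MHC cells and 9682 in NEG cells, and none was at 0 in any library. Actc1 and Myh7 are uncertain because overlapping genes take part of their reads. Myh6 itself had 186924 in MHC, against 4694 in GFP and 3843 in NEG. GFP thus held 1.22-fold the Myh6 level of NEG (95% interval 1.17 to 1.28). Zfp42 had 8 reads in GFP and 10 in NEG, and its interval for this ratio, given above, includes 1.22. So few reads cannot show whether Zfp42 followed Myh6 between GFP and NEG. The table gives 1 value per gene span and does not show where in Zfp42 the reads lie. The labels do not say whether the lentiviral vector carries sequence of Zfp42 itself. Reads of the cells' own gene and of any such sequence cannot be told apart, so the 709 in MHC is not established as expression of the endogenous gene. The part of heart muscle cells in this count was not tested.

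**Figure D3:**
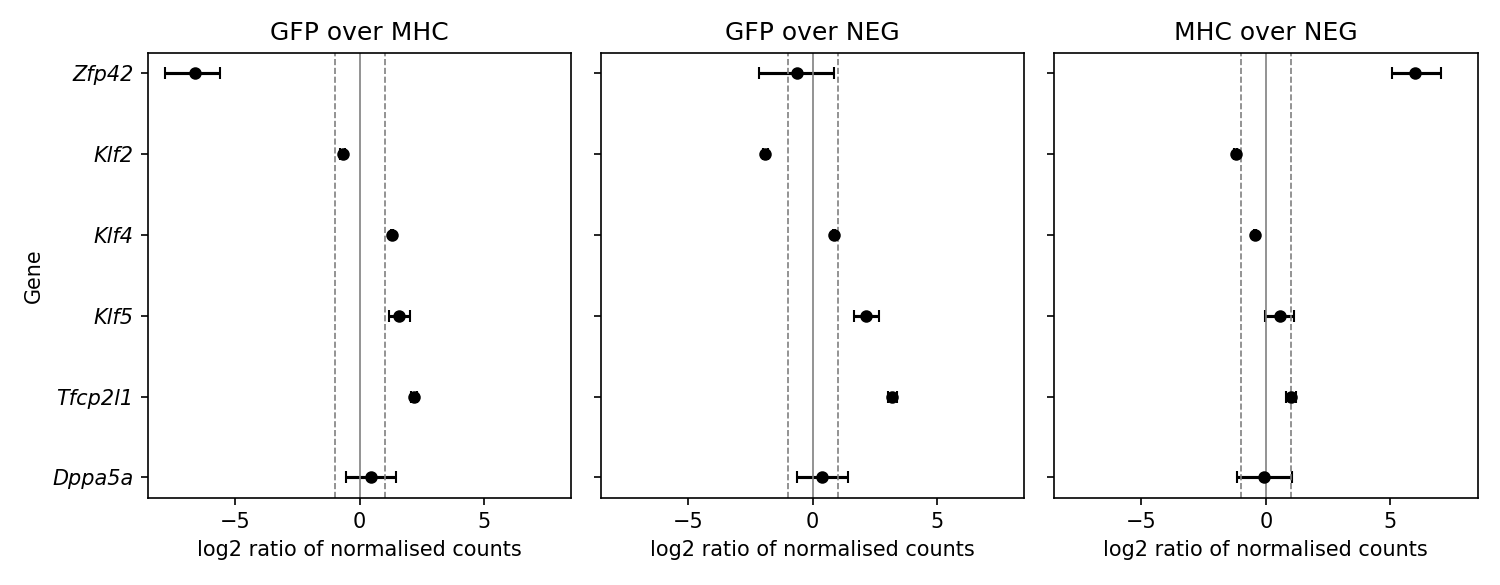
Log2 ratio of normalised counts with the exact 95% counting interval for the 6 members with a value of 20 or more in a library, in GFP over MHC, GFP over NEG and MHC over NEG, with dashed lines at 2-fold. Zfp42 lies far below 0 in GFP over MHC and far above in MHC over NEG, Tfcp2l1 and Klf5 lie above 2-fold in both ratios with GFP on top, and Klf2 lies below 2-fold in both ratios over NEG.

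Tfcp2l1, a CP2 family transcription factor that acts downstream of LIF and STAT3 in stem cells, was highest in GFP. It (ENSMUSG00000026380, chr1:118627945-118685167, plus strand, protein-coding) had 2910.4 in GFP, 641 in MHC and 319.7 in NEG. GFP was 4.54-fold above MHC (95% interval 4.17 to 4.95) and 9.10-fold above NEG (95% interval 8.06 to 10.3). MHC was 2.01-fold above NEG (95% interval 1.74 to 2.32), just past the size rule, and this call was lost when reads were scaled to equal totals (RPM) and with a pseudocount of 10 (log2 ratio 0.98). Per kb of exon it had 308 in GFP, 67.9 in MHC and 33.9 in NEG, higher than 73.6%, 50.3% and 43.7% of protein-coding genes.

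The span of Tfcp2l1 holds a pair of small RNA genes that took few of its reads. The snRNA gene Gm23497, which lies wholly inside an annotated exon of Tfcp2l1, had 84 reads in GFP cells, 8 in MHC cells and 3 in NEG cells, against 3184, 633 and 283 over Tfcp2l1 itself. Among the 6 listed members of the grainyhead and CP2 family, Tfcp2l1 was the only gene 2-fold higher in GFP than in NEG. Its relatives Tfcp2 and Ubp1 (uncertain, sharing reads with Fbxl2) were within 2-fold in every pair, Tfcp2 with 661 in GFP, 961 in MHC and 955 in NEG. Grhl1, a grainyhead factor of epithelia, was highest in MHC instead, with 62.2 in GFP, 197 in MHC and 65.5 in NEG. Grhl3 had 38.4 in GFP cells, 14.2 in MHC cells and 31.6 in NEG cells, 2-fold apart in both pairs with MHC.

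Klf4, a KLF factor of stem cells and of epithelia, was the most abundant member per kb of exon in every library. It (ENSMUSG00000003032, chr4:55527143-55532466, minus strand, protein-coding) had 16169.8 in GFP, 6581 in MHC and 8923 in NEG. GFP was 2.46-fold above MHC (95% interval 2.39 to 2.53) and 1.81-fold above NEG (95% interval 1.77 to 1.86), and MHC was 0.738-fold of NEG (95% interval 0.714 to 0.762). The order was GFP, NEG, MHC, with each step larger than counting error and only GFP over MHC past 2-fold. With RPM scaling the GFP over NEG difference also passed 2-fold. Klf4 made up 78.1% of the summed normalised count of the 10 members in GFP, 64.2% in MHC and 61.5% in NEG. Per kb of gene span, however, Klf2 was above Klf4 in NEG (1963 against 1676).

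Klf5, a KLF factor of stem cells and epithelia, followed the order of Tfcp2l1 at a lower level per kb of exon. It (ENSMUSG00000005148, chr14:99298691-99313405, plus strand, protein-coding) had 205 in GFP, 67.9 in MHC and 46.3 in NEG. GFP was 3.02-fold above MHC (95% interval 2.29 to 4.03) and 4.42-fold above NEG (95% interval 3.16 to 6.33). MHC over NEG was 1.47 (95% interval 0.979 to 2.22) and not distinguished by counting error.

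Klf2, known as a flow-responsive factor of endothelium, ran the other way and was highest in NEG. It (ENSMUSG00000055148, chr8:72319033-72321656, plus strand, protein-coding) had 1380.2 in GFP, 2214 in MHC and 5151 in NEG. It was 3.73-fold lower in GFP than in NEG (95% interval 3.52 to 3.96), 2.33-fold lower in MHC than in NEG (95% interval 2.21 to 2.45) and 1.60-fold lower in GFP than in MHC (95% interval 1.50 to 1.71). The 3 members of the KLF family therefore did not share an order, and GFP was the highest library for Klf4 and Klf5 and the lowest for Klf2.

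Over the whole family, Klf4 had the highest level per kb of exon of the 17 Klf genes in each library. It had 5303 in GFP, 2158 in MHC and 2927 in NEG, or 50.4%, 23.3% and 26.2% of the family's summed level per kb of exon. Since counts cover the whole gene span, the lead depends on the length used. Per kb of span Klf2 was above Klf4 in NEG, with 1963 against 1676. Per kb of exon Klf2 ranked 3 in GFP, 3 in MHC and 2 in NEG, with 747, 1199 and 2789, and Klf5 ranked 13, 14 and 16. In GFP the gene after Klf4 was Klf6, whose normalised count was 9535 in GFP cells, 4559 in MHC cells and 6662 in NEG cells. Klf9, a KLF factor induced by glucocorticoid, had a normalised count of 733 in GFP cells, 6290 in MHC cells and 4515 in NEG cells, 8.58-fold lower in GFP than in MHC (95% interval 7.97 to 9.25). Klf13 was level, at 5048 in GFP cells, 4892 in MHC cells and 4888 in NEG cells, and Klf17, which functions in human naive pluripotency, had 0 reads in all libraries.

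**Figure D4:**
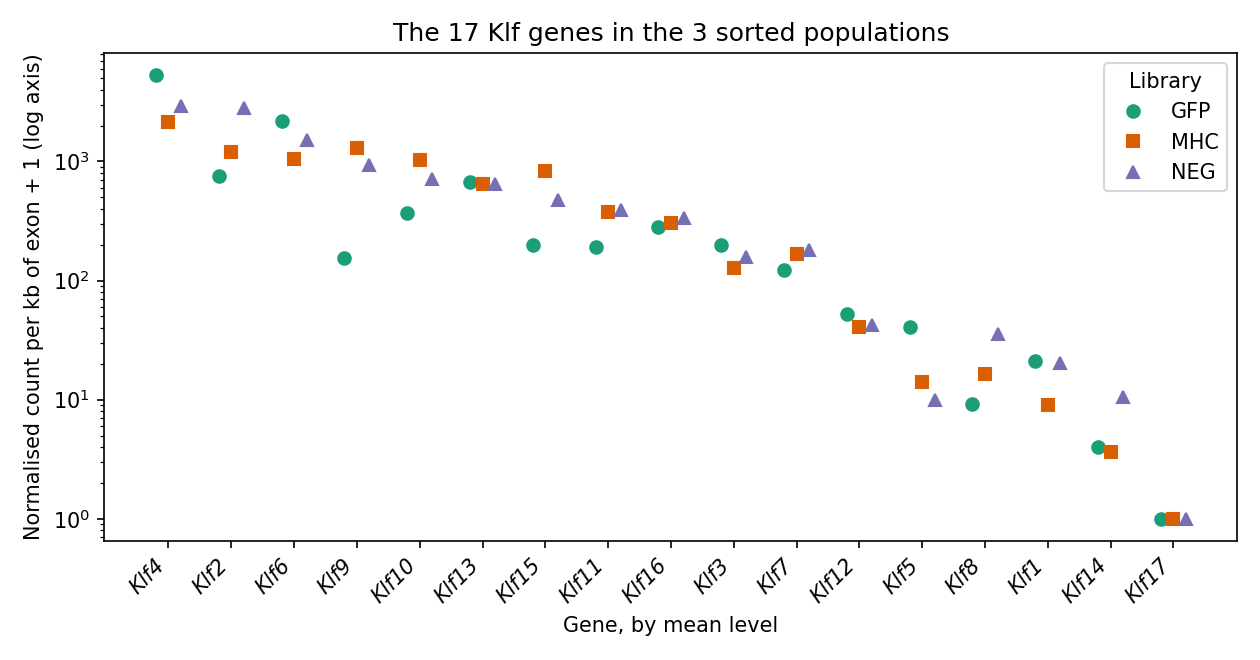
Normalised count per kb of exon plus 1 (log axis) of the 17 Klf genes in GFP, MHC and NEG, 1 library each, ordered by mean level. Klf4 leads in every library on this scale, GFP lies above the other libraries for Klf4, Klf5 and Klf6, and GFP lies below them for Klf2, Klf9, Klf10 and Klf15.

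Of the 26 KLF and SP genes listed, 4 were 2-fold higher and 5 lower in GFP than in MHC, the higher being Klf1, Klf4, Klf5 and Klf6 and the lower Klf9, Klf10, Klf15, Sp6 and Sp7. Against NEG, Klf5 was higher in GFP and 8 were lower, namely Klf2, Klf8, Klf9, Klf11, Klf14, Klf15, Sp6 and Sp7. Between MHC and NEG none was higher in MHC and 5 were lower, Klf1, Klf2, Klf8, Klf14 and Sp6. Those that could be called numbered 22, 23 and 23 in these pairs. Shares of all genes higher and lower were 15.6% and 16.4%, 14.1% and 15.0%, and 5.35% and 5.21% in the same pairs. Sp6 is uncertain, since Gm11532 overlaps it with a like count. The median log2 ratio of the 23 with a mean value of 10 or more was −0.08 for GFP over MHC, −0.24 for GFP over NEG and −0.12 for MHC over NEG, where that of all genes was 0.00, 0.01 and −0.01. Sp7, the bone factor osterix, showed the largest difference of the family, with 154 in GFP, 5945 in MHC and 10476 in NEG.

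Markers of other cell types were set beside these members. Of 12 mesothelial and epithelial markers 11 could be called, and 10 were higher in GFP than in MHC and the same number higher than in NEG. Of all genes, 15.6% and 14.1% were higher in GFP in these pairs. The summed normalised count of the 12 markers was 175918 in GFP cells, 6737 in MHC cells and 7797 in NEG cells. The uroplakin gene Upk3b had 54258 in GFP, 995 in MHC and 1368 in NEG. The keratin gene Krt7 had 15730.1 in GFP, 881 in MHC and 2044 in NEG. Krt8 (4182, 349 and 407) and Krt18 (1986, 146 and 147) were likewise higher in GFP, in the same order of libraries. Cdh1 was also higher in GFP at low values (64.0, 19.2 and 7.90), while Epcam (25.6, 15.2 and 14.7) was within 2-fold and Cldn4 (12.8, 4.05 and 3.39) was below 20 in all libraries. These markers and Klf4, Klf5 and Tfcp2l1 were all highest in GFP, and the part of such cells in the 3 members' levels was not tested. Of 8 smooth muscle markers, which can accompany Klf4 and Klf5, 6 were lower and 1 higher in GFP than in MHC. All genes gave 16.4% and 15.6% in these directions.

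The 12 endothelial markers summed to 1082 in GFP, 4534 in MHC and 2929 in NEG. None was at 0 in any library. In each pair 7 of the 12 could be called. Of these, 2 were higher and 3 lower in GFP than in MHC, against 15.6% and 16.4% of all genes. In GFP against NEG 1 was higher and 4 lower, against 14.1% and 15.0%, and in MHC against NEG 1 was higher and 1 lower, against 5.35% and 5.21%. The endothelial markers did not share an order. The receptor gene Kdr was highest in NEG, as Klf2 was, with 84.1 in GFP, 59.8 in MHC and 195 in NEG. Flt1 (40.2, 2370.2 and 1174) and Eng (192, 1654 and 1059.6, uncertain because of overlapping genes) were highest in MHC, and Tek (504, 225 and 277) was highest in GFP, each in the order GFP, MHC, NEG. Cdh5 had 5.48 in GFP cells, 9.12 in MHC cells and 9.04 in NEG cells, and Pecam1 had 15.5, 34.4 and 33.9. The part of endothelial cells in the Klf2 level was not tested. Immediate early genes, which answer dissociation and sorting and with which Klf2 and Klf4 are often counted, were abundant everywhere. Their summed normalised count over 16 genes was 274346 in GFP cells, 291876 in MHC cells and 239742 in NEG cells. In GFP against MHC 2 of the 16 were higher and 5 lower, against 15.6% and 16.4% of all genes. In GFP against NEG 3 were higher and 3 lower, against 14.1% and 15.0%. In MHC against NEG 4 were higher and 0 lower, against 5.35% and 5.21%. Fos had 59671 in GFP, 43455 in MHC and 38523 in NEG, Egr1 had 44711, 79457 and 71405, and their part in the Klf2 and Klf4 levels was not tested.

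The LIF pathway, to which Klf4 and Tfcp2l1 belong in stem cells, held its ligand at the highest level in GFP. Lif had 1353 in GFP cells, 163 in MHC cells and 101 in NEG cells, 8.30-fold above MHC in GFP (95% interval 7.05 to 9.82). Its receptor gene Lifr had 2593 in GFP, 5655 in MHC and 4813 in NEG. Socs3, the feedback inhibitor induced by STAT3, was 2.89-fold lower in GFP than in MHC (95% interval 2.76 to 3.02), and Stat3 itself had 11364 in GFP, 7674 in MHC and 7928 in NEG, within 2-fold in every pair. Of the 11 genes listed, 10 could be called. Of these, 2 were higher and 2 lower in GFP than in MHC, against 15.6% and 16.4% of all genes. In GFP against NEG 3 were higher and 1 lower, against 14.1% and 15.0%. Il6ra was higher in MHC than in NEG, as were 5.35% of all genes.

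Most other pluripotency genes were low, as were many genes of the whole table. In GFP or MHC, 15 of the 36 reached 20, against 20879 of all 39179 genes. Of 36 listed, 21 were below a value of 20 in all libraries, including the naive factors Esrrb, Prdm14 and Nr0b1, the growth factor genes Fgf4 and Nodal and the markers Dppa2, Dppa3, Dppa4, Utf1 and Zscan10. Esrrb, the nuclear receptor of the naive network, had 3.66 in GFP cells, 9.12 in MHC cells and 11.3 in NEG cells, and Nr0b1 had 0 reads in all. Of the 15 that reached 20, 4 were higher and 4 lower in GFP than in MHC, 3 higher and 2 lower in GFP than in NEG, and 2 higher and 0 lower in MHC than in NEG. Those that could be called numbered 15, 14 and 14 in these pairs. Shares of all genes higher and lower were 15.6% and 16.4%, 14.1% and 15.0%, and 5.35% and 5.21%. The median log2 ratio of the 15 was 0.11, 0.47 and 0.10 in these pairs, with all genes at 0.00, 0.01 and −0.01.

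Several of those 15 work outside stem cells too. Zfp57, a KRAB zinc finger protein that keeps imprints, had 2024 in GFP cells, 734 in MHC cells and 550.1 in NEG cells, 3.68-fold above NEG in GFP (95% interval 3.33 to 4.07). Tet1, a methylcytosine dioxygenase, had 218 in GFP cells, 544 in MHC cells and 792 in NEG cells, 3.62-fold lower in GFP than in NEG (95% interval 3.13 to 4.22). Jarid2, a Polycomb cofactor also active in heart, had 12737 in GFP, 37505 in MHC and 23810 in NEG. Tbx3, a factor of naive cells and of the cardiac conduction system, had 16.5 in GFP, 111 in MHC and 6.78 in NEG, the same order of libraries as Zfp42 except that GFP lay above NEG. Manba, Lefty2 and Trim71 were also higher in GFP than in MHC, and Trim71 is uncertain because an overlapping gene takes part of its reads.

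**Figure D5:**
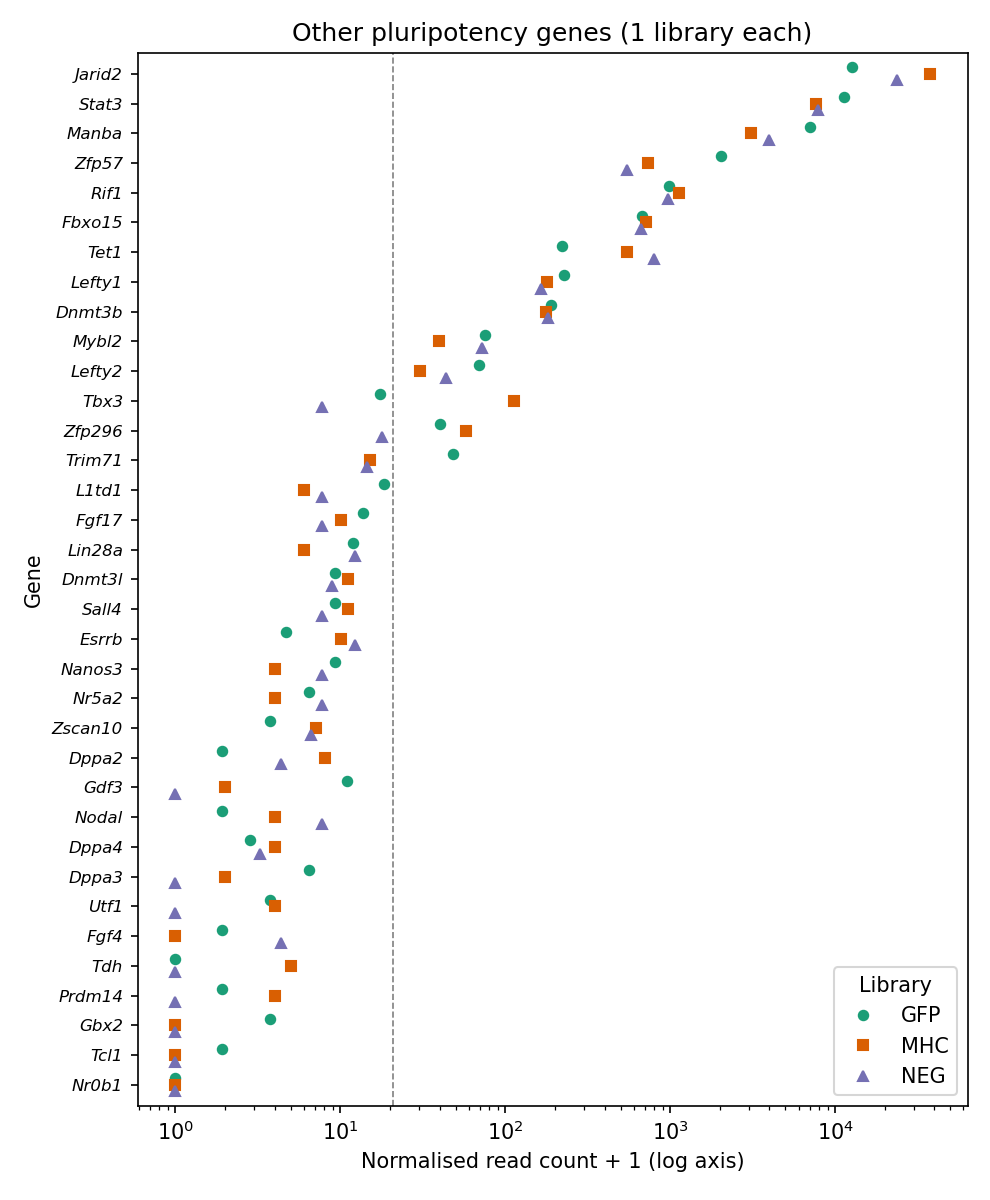
Normalised read count plus 1 (log axis) of the other pluripotency genes described here in GFP, MHC and NEG, 1 library each, ordered by mean, with a dashed line at the value of 20. The 21 genes from L1td1 downwards lie below the line in all libraries, and the genes at the top are Jarid2, Stat3, Manba and Zfp57.

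Genes of the formative and primed states and of gastrulation were low or varied by library. Of 15 listed, 8 stayed below 20 in all libraries, among them Fgf5, the mesoderm genes T, Eomes, Mixl1 and Mesp1, and Cer1. Of all 39179 genes, 20879 reached 20 in GFP or MHC. In GFP against MHC, of 7 that could be called 1 was higher and 6 lower, against 15.6% and 16.4% of all genes. In GFP against NEG, of 7 again, 1 was higher and 4 lower, against 14.1% and 15.0%. Pou3f1, a POU factor of primed cells and of glia, was the higher one, with 409 in GFP, 81.0 in MHC and 28.2 in NEG. Otx2 had 4.57 in GFP cells, 109 in MHC cells and 44.1 in NEG cells, and Foxa2, a factor of endoderm, had 3.66 in GFP, 53.7 in MHC and 150.2 in NEG. Fst, Gsc, Lef1 and Tbx6 were the remaining lower genes against MHC. Between MHC and NEG, Fst, Otx2 and Pou3f1 were higher and Foxa2 lower in MHC, where 5.35% and 5.21% of all genes were.

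Some relatives of the core factors were well above the value of 20. Among 19 Sox genes, Sox4 (uncertain, sharing reads with an overlapping gene) had 5815 in GFP cells, 1777 in MHC cells and 4602 in NEG cells, and Sox12 had 3047 in GFP, 529 in MHC and 826 in NEG. Sox9, the factor of cartilage and other tissues, had 164 in GFP, 1968 in MHC and 2281 in NEG. The neural genes Sox1 and Sox3, nearest relatives of Sox2, had at most 3.66 and 6.40, both in GFP. Of 15 Pou genes, Pou6f1 had 856 in GFP cells, 1675 in MHC cells and 1672 in NEG cells, and Pou4f1, a factor of sensory neurons, had 82.3 in GFP, 0 in MHC and 5.65 in NEG. In the pathway of Tdgf1, its relative Cfc1 and the ligand gene Nodal were below 20 in all libraries, whereas the activin receptor gene Acvr1b had 2685 in GFP, 1510.2 in MHC and 1011 in NEG.

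Germ cell genes, some of which are also used as stem cell markers, were mostly low. Of 12 listed 8 stayed below 20 in all libraries, among them Ddx4, Dazl, Prdm1 and Tfap2c. In GFP or MHC, 4 of the 12 reached 20, against 20879 of all 39179 genes. Kit, a receptor of germ cells, mast cells and other progenitors, had 25.6 in GFP, 121 in MHC and 337 in NEG. Piwil2 had 23.8 in GFP cells, 107 in MHC cells and 26.0 in NEG cells, and like Zfp42 it was 2-fold apart in both pairs with MHC, higher there. Stk31 and Sycp3, which reached 20 as well, are uncertain because overlapping genes take part of their reads.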

How the data were processed

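RNA from 3 sorted populations, with 1 library each, was analysed. Per the labels' protocols, TruSeq RNA libraries were sequenced as single reads of 50 bases. The aligner STAR (2.3.0e) and the packages DESeq2 (1.2.10), bedtools (2.17.0) and FastQC (0.11.2) appear with mm10 in lists made from the submitters' processing notes, which give no role or order. The authors deposited a signal for every gene in every library, namely reads over the library's size factor. All values were whole multiples of the value of 1 read (100% in each library within a tolerance of 0.01), and whole reads were recovered from them. A count model could not be fitted, since 1 library per population leaves no residual degrees of freedom, and it therefore calls no genes.

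The members and lists were chosen with earlier results of these data known. Named were all members, and of other lists the genes 2-fold apart in a pair and up to 4 of the highest means; further genes were named after their values were seen, to show low levels; some genes of the lists are counted but not named or drawn singly. Intervals are Clopper-Pearson intervals of the share of reads (scipy 1.17.1), and reads are not independent molecules. The check of nested genes used those with 300 or more reads. A gene is called uncertain where an overlapping gene has at least 25% of its reads. Exon lengths and strands are from GENCODE M21, matched by identifier. The computation was tested on simulated reads. Alternatives were the scaling, pseudocount (1 or 10), minimum value (20, none or 100), fold (2 or 3) and overlap.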

Additional observations from a re-analysis of the deposited data

How the results depend on the processing

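The number of members 2-fold apart was computed under 7 other settings in each pair. With a 3-fold rule it was 2 for GFP against MHC (Tfcp2l1 and Zfp42) and 1 for MHC against NEG (Zfp42), against 4 and 3 at 2-fold, and with no minimum value it was 6 for GFP against NEG, against 3, by the low genes Nanog, Sox2 and Tdgf1. All other counts were within 1.5 times. RPM scaling of the recovered reads moved the median log2 ratio of all genes by 0.17 for GFP over MHC and 0.16 for GFP over NEG, and with it Klf4 joined the genes higher in GFP than in NEG while Tfcp2l1 left those higher in MHC than in NEG. No ratio of a called member changed sign under another scaling or pseudocount. The depth does not separate the populations for Pou5f1, Nanog or Dppa5a. No paired analysis was possible because each population has 1 library and the result comes from no test.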
